A study of Mus musculus with 6 samples.

Results

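RNA of OT-I CD8+ T cells 4 days after stimulation with T4, a weak peptide ligand of the OT-I receptor, was compared with RNA of naive OT-I CD8+ T cells. OT-I is a transgenic mouse line in which most CD8+ T cells carry 1 receptor for an ovalbumin peptide; N4 is the strong ligand and T4 a variant of low potency. There were 2 libraries each of T4 cells, N4 cells and naive cells, and both peptides were given together with antibodies that engage OX40 and 4-1BB, costimulatory receptors of T cells. The labels give spleen and lymph nodes as the source of all 6 libraries, give the same OT-I genotype for all, and the sources used here give no age, sex or sorting gate. The labels do not say whether the 2 libraries of a group came from separate mice, so every p-value measures only the spread between these libraries. Genes entered the comparison when the CPM (the deposited estimated count scaled to a common library total) was at least 1 in both T4 libraries or in both naive libraries. This took in 13360 of the 55414 genes in the table. Of these, 11232 reached the minimum in both groups, 1543 in T4 alone and 585 in naive alone, and genes that entered through 1 group alone were chosen in part by a difference between the groups. Gm33023, Gm38979 and Ccdc142os stood just inside the minimum at 1.0001 CPM, and Adcy3 and Ank1 just outside at 0.9974 CPM. All 13360 were among the 23003 genes with enough counts to be tested.

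A naive CD8+ T cell is small and quiescent, recirculates between blood and lymphoid tissue, and is kept from dividing by transcription factors and RNA regulators that are lost when the antigen receptor is engaged. Engagement switches on immediate early factors of the AP-1, EGR and NR4A families, then growth, DNA replication and division, and finally genes of the killer cell. OX40 and 4-1BB, members of the tumour necrosis factor receptor family, signal through TRAF adaptors to NF-kB and sustain survival. The strength of the peptide ligand is known to tune how far a cell goes along this course.

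The 6 libraries summed to between 269033066 and 335968843 estimated counts, a total that may not equal a number of reads, and 27147 and 27098 genes were above 0 in the T4 libraries against 24280 and 23871 in the naive ones. The T4 libraries were more alike than the naive ones. Over the genes that reached the minimum in both groups, the 2 T4 libraries differed by a median absolute log2 ratio of 0.18 and the 2 naive libraries by 0.58, beside a median absolute log2 fold change of 0.38 between the groups. The ratio exceeded 2-fold for 1.27% of these genes between the T4 libraries and for 22.1% between the naive ones. CD8 T cell markers were present in all libraries and summed to 4142.8 and 4438.2 CPM in T4 and 6006.5 and 7676.5 in naive cells. Of the 9 genes, 8 had a negative log2 fold change. Without overlap, 4 lay lower and none higher (22.6% and 26.2% of all genes). The median was -0.37, which was -0.06 without naive library 1. Cd8a stood at 113.8 and 103.6 CPM in T4 and 183.3 and 106.0 in naive cells. CD4 and regulatory T cell markers summed to 1.85 and 1.27 CPM against 5.99 and 3.57. Levels here and below are CPM with TMM (trimmed mean of M-values) scaling factors, given in the order library 1, library 2. The factors were 1.36 and 1.283 in T4, 1.307 and 0.8332 in naive and 0.8207 and 0.6412 in N4 libraries. Gaps between libraries therefore depend in part on this scaling. The minimum of 1 CPM was applied without these factors.

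Markers of other blood cells differed between the groups and between the naive libraries. The 14 neutrophil markers summed to 17.1 and 8.85 CPM in T4 but to 2520.9 and 25651.9 in naive cells. All 14 lay lower in T4 without overlap, as did 22.6% of all genes. S100a8, a calcium-binding protein of neutrophils, stood at 4.64 and 2.03 CPM against 1118.2 and 11645.0. Plasma cell markers summed to 429.6 and 421.8 CPM in T4 against 2361.4 and 38254.4, with Igkc, the kappa light chain, alone at 34589.9 in naive library 2. Both naive libraries therefore held more of this RNA than the T4 libraries, and naive library 2 held the most.

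Macrophage and monocyte markers summed to 1442.4 and 1579.3 CPM in T4 and to 3293.4 and 8104.7 in naive cells, with all 14 below 0 in fold change. The median log2 fold change was -2.79. After N4 the markers summed to 4257.2 and 5959.9 CPM, although their median was -5.26 for N4 minus naive. The sum thus did not follow most of its genes. It includes Ly6c2, which is also on the list of Ly6 and activation surface markers. Lyz2, the lysozyme of myeloid cells, was at 242.7 and 230.1 CPM against 1319.2 and 2322.0, and Adgre1, which encodes the F4/80 antigen, at 0.228 and 0.129 against 11.7 and 6.46. Red pulp macrophage markers summed to 8.12 and 7.66 CPM against 245.4 and 63.5, where naive library 1 was the higher. No gene of these 4 lists passed the edgeR test described below, which 0.117% of all genes did. At an unadjusted p under 0.05 by that test, 14 of 14 neutrophil and 6 of 9 plasma cell markers were lower. So were 11 of 14 macrophage and monocyte and 8 of 10 red pulp macrophage markers, beside 7.29% of all genes, and none was higher. B cell markers had low sums that were similar, at 169.5 and 145.8 CPM against 228.4 and 154.5. Singly they went both ways, with 4 of 11 higher and 2 lower without overlap (26.2% and 22.6% of all genes). Their median log2 fold change was 0.17, which was -0.57 without naive library 1 and 1.49 without naive library 2. Red cell markers were high in both groups, at 6652.5 and 8241.1 CPM against 3518.7 and 9288.3. Dendritic cell markers summed to 875.6 and 900.8 CPM in T4 against 2357.4 and 1868.2 in naive cells. Those of mast cells and basophils summed to 94.6 and 85.0 CPM against 71.9 and 1891.1, a wide gap within the naive pair. In bulk RNA, fewer cells of a type and less RNA per cell cannot be told apart, and the part of these markers in the results below was not tested.

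**Figure D1:**
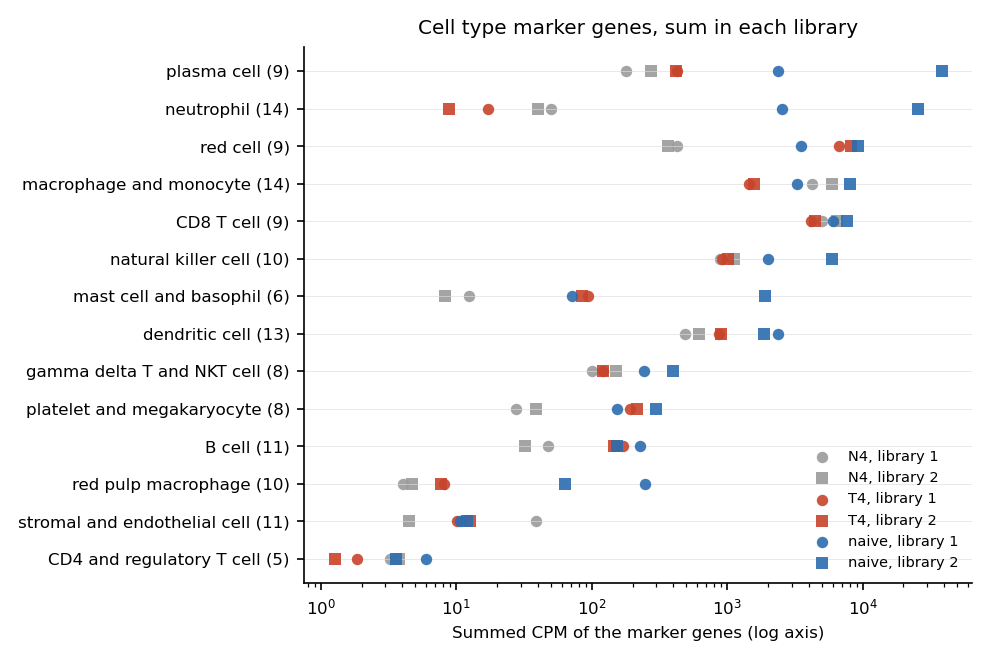
Summed CPM of the marker genes of 14 cell types (log axis) in each of the 6 libraries, with the number of genes tested in brackets; circles are library 1 and squares library 2. The naive libraries (blue) lie above the T4 libraries (red) for neutrophil, plasma cell and macrophage markers, by the most in naive library 2 at 25651.9 CPM of neutrophil and 38254.4 of plasma cell markers.

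Between T4 and naive cells, 27 genes passed an adjusted p of 0.05, 19 higher and 8 lower in T4, by edgeR's quasi-likelihood test with Benjamini-Hochberg adjustment over all genes tested. This was 0.117% of the genes tested, 0.0826% higher and 0.0348% lower, and 0.202% of the genes that entered the comparison (0.142% higher and 0.0599% lower). Of the genes that reached the minimum in both groups 0.151% passed, 0.0979% higher and 0.0534% lower. Their adjusted p-values lay between 0.047 and 0.049, at unadjusted p-values of 3.6e-06 to 5.7e-05, and the smallest fold among them was 5.82. Of the 27, 8 of the higher genes (Fosb, Zbtb32, Mmp10, Tatdn2, Rnu12, Gm33460, Hist1h1a and ENSMUSG00000119227.1) reached the CPM minimum in T4 alone and 2 of the lower (Ccl24 and Cystm1) in naive cells alone. Below that, 3329 genes had an unadjusted p under 0.05 (7.18% of all tested higher and 7.29% lower; 7.97% and 9.51% of those that entered, and 6.37% and 8.15% of those in both groups), and 320 genes an adjusted p under 0.1, 172 higher and 148 lower. In 26.2% of all genes tested both T4 libraries lay above both naive libraries, and in 22.6% both lay below; the shares were 26.3% and 25.4% of the genes that entered, and 23.2% and 25.3% of those in both groups.

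With so few libraries the count of calls depended on single ones. Without T4 library 1 or 2, or without N4 library 1 or 2, edgeR called 0 genes, with 1577, 1631, 3313 and 3308 genes at an unadjusted p under 0.05. Without naive library 1 it called 357 genes and without naive library 2 it called 317, and DESeq2 called 1995 from all libraries. Under every alternative run, all 27 genes kept their direction and an unadjusted p of at most 0.0014.

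**Figure D2:**
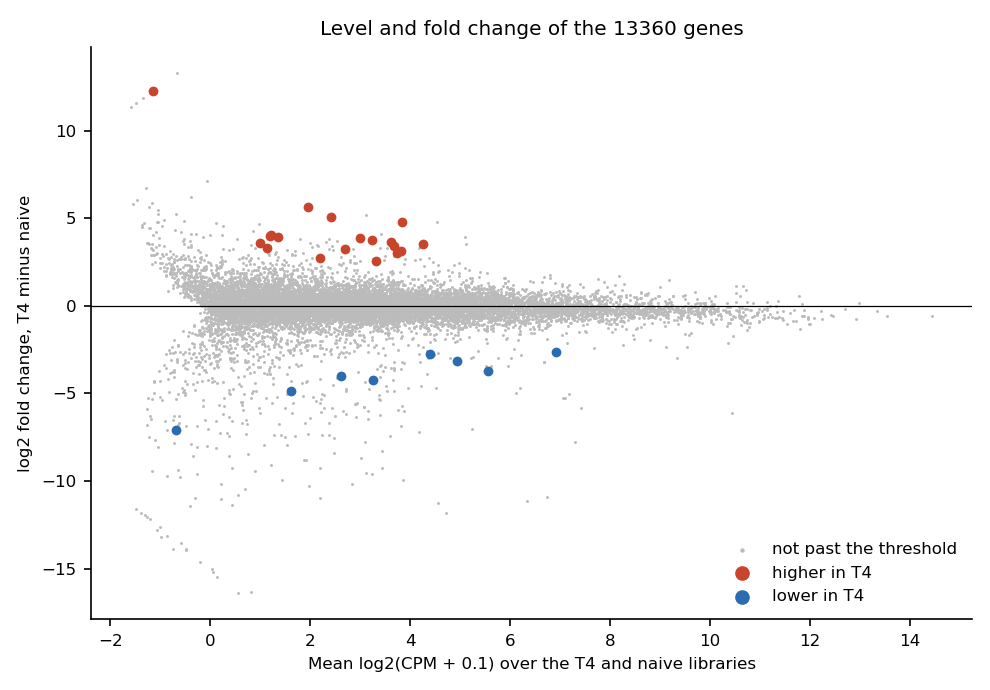
Each point is 1 of the 13360 genes, at its mean log2(CPM + 0.1) over the 4 T4 and naive libraries and its log2 fold change, T4 minus naive. The 19 genes higher in T4 are red and the 8 lower are blue. Genes that reached the minimum in both groups ran from -11.8 to 4.77. Fold changes of genes at or near 0 in 1 group depend on the prior count of the fit.

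The group with the most calls was the histones, the proteins around which DNA is wound. Histone genes were taken by symbols that start with Hist1h to Hist4h, so histone genes under other symbols are not counted here. Of the linker histones of the H1 class, Hist1h1a, Hist1h1b, Hist1h1d and Hist1h1e rose, 4 of the 5 H1 genes tested with such symbols. Hist1h1b stood at 34.9 and 39.7 CPM in T4 and 4.39 and 4.93 in naive cells. It rose 8.0-fold (log2 fold change 3.0 ± 0.3 SE, adjusted p = 0.049). Hist1h1d stood at 28.1 and 31.4 CPM against 1.99 and 2.11, a rise of 14.5-fold (log2 3.86 ± 0.36, adjusted p = 0.047). In both genes the T4 libraries lay far outside the range of the naive ones. Hist1h1a was at 8.3 and 10.2 CPM against 0.56 and 0.657, and Hist1h1e at 23.2 and 23.8 against 3.82 and 4.27. The fifth gene, Hist1h1c, was at 53.1 and 61.8 CPM against 18.7 and 23.3 and did not pass (log2 1.45, adjusted p = 0.11). Exons of Hist1h1e overlap another gene, and the library kit does not mark strand, so its reads are less certain.

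The bases upstream of these 4 genes are shown because H1 genes are known for a shared promoter element, the H1 box, with the letters AAACACA. Each line is the 150 bases before the transcription start, 5′ to 3′ on the strand of the gene, from RefSeq with build GRCm38.p6, and capitals mark AAACACA where a search of both strands found it.

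Hist1h1a (chr13:23763518-23763667, + strand): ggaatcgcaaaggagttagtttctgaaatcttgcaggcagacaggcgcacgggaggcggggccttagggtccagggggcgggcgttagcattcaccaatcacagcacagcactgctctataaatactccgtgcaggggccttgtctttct
Hist1h1b (chr13:21780626-21780775, - strand): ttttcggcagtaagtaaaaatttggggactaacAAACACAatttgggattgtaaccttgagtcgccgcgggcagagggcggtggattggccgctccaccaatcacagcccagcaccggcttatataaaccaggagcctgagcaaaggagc
Hist1h1d (chr13:23554882-23555031, + strand): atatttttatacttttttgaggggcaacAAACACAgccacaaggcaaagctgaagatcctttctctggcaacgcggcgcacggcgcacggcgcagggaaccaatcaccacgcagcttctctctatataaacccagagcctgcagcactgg
Hist1h1e (chr13:23622559-23622708, - strand): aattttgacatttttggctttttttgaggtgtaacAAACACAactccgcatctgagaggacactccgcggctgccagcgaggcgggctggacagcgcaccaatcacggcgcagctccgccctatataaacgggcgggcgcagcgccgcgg

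The 3 matches began 117, 122 and 115 bases before the start of Hist1h1b, Hist1h1d and Hist1h1e. In windows from 250 bases before to 50 after the start, 3 of the 4 genes held AAACACA, beside 8.22% of all 27025 genes with a RefSeq promoter. These windows were searched after the calls were seen, and a match describes letters only.

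The core histones, which form the spool itself, had fewer calls. Of 66 histone genes tested with Hist1h to Hist4h symbols, 6 passed the test. Among the 66, 60 had both T4 libraries above both naive libraries and none had both below, beside 26.2% and 22.6% of all genes. Their median log2 fold change was 2.30, against 0.00 over all genes tested, and it ranged from 1.65 without naive library 1 to 2.77 with library size scaling. H2B genes had a median of 2.97 with Hist1h2bq and Hist1h2br called, H3 genes 2.61, H4 genes 1.68 and H2A genes 1.36. Hist1h2br was at 39.5 and 47.8 CPM in T4 and 2.7 and 4.26 in naive cells, a rise of 12.6-fold (adjusted p = 0.047), and Hist1h2bq at 31.0 and 38.6 against 1.97 and 3.11. Histone genes lie in clusters of near-identical copies, so reads can be split between them, and exons of 24 of the 66 overlap another gene, among them all 18 H2A genes. Most replication-dependent histone RNAs end in a stem-loop without a poly(A) tail, and the libraries were made from poly(A) RNA, so the levels cover only the RNA that the kit captured. The class was singled out after the calls were seen.

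**Figure D3:**
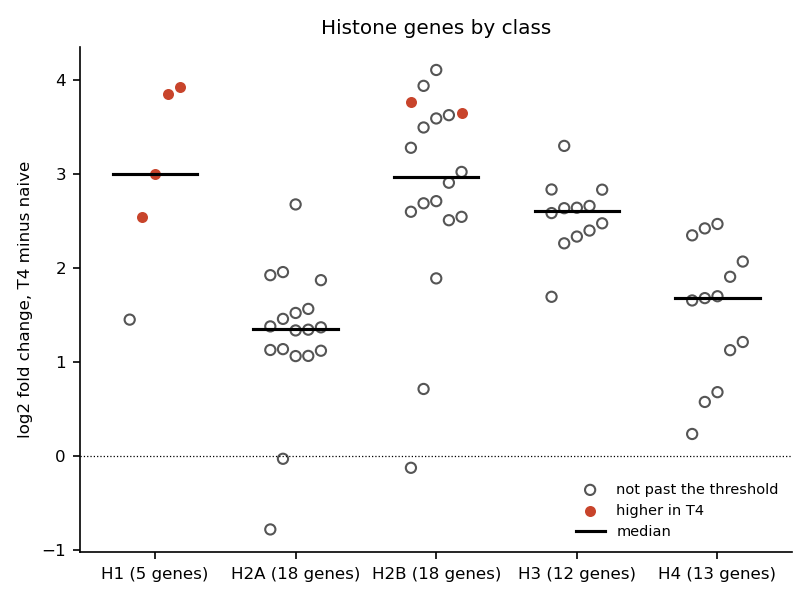
log2 fold change, T4 minus naive, of each of the 66 histone genes tested with Hist1h to Hist4h symbols, by class. The median is a black line, and filled points passed the test. All 5 H1 genes, all 12 H3 genes and all 13 H4 genes lie above 0, and 3 genes of the H2A and H2B classes lie below.

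Genes of the AP-1 transcription factor, a dimer of FOS and JUN proteins made within minutes of receptor signals, formed the second group. Fos stood at 45.7 and 37.1 CPM in T4 and 3.4 and 4.38 in naive cells and rose 10.6-fold (log2 3.41 ± 0.28, adjusted p = 0.047). Fosb, its close relative, stood at 22.6 and 28.1 CPM against 0.499 and 0.496 and rose 50.9-fold (log2 5.67 ± 0.49, adjusted p = 0.047). For both genes the T4 libraries lay close together and neither overlapped a naive library. In cells 4 days after N4, Fos was at 1.26 and 1.25 CPM and Fosb at 1.54 and 3.35, both below T4 (adjusted p = 0.013 and 0.023). For Fos the log2 fold change was -1.63 for N4 minus naive (adjusted p = 0.019) and 3.41 for T4 minus naive, and these 2 comparisons share the naive libraries.

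Of the 31 genes in the immediate early list, Fos and Fosb passed the test, 17 had both T4 libraries above the naive ones and 5 had both below, with a median log2 fold change of 0.63. In this and the following lists, a gene is counted as higher or lower where the libraries do not overlap, which held for 26.2% (higher) and 22.6% (lower) of all genes tested, whose median was 0.00. Nr4a3 and Nr4a2, orphan nuclear receptors induced by antigen receptor signals, came next by p: Nr4a3 at 7.04 and 9.87 CPM against 0.487 and 0.52 (log2 4.07, adjusted p = 0.055), and Nr4a2 at 5.19 and 6.89 against 0.551 and 0.933 (log2 3.03, adjusted p = 0.066). Jun, the partner of FOS, was at 131.9 and 135.2 CPM against 7.86 and 1.95 (log2 4.77, adjusted p = 0.076), and Egr1, a zinc finger factor of the same response, at 57.4 and 66.0 against 9.5 and 2.78 (log2 3.33, adjusted p = 0.099). The large T4 to naive gap in Jun and Egr1 went with a naive pair that itself differed by more than 3-fold. Other members showed no such gap: Nr4a1 was at 8.75 and 9.65 CPM against 14.3 and 8.04, Myc at 33.4 and 31.4 against 37.6 and 11.6, and Cd69, an early activation antigen, at 64.1 and 72.3 against 103.2 and 91.6.

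Upstream bases of Fos and Fosb are shown because both genes are textbook targets of factors that bind the cyclic AMP response element, whose core is TGACG. Build, strand and length are as for the histones, and capitals mark TGACG on either strand.

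Fos (chr12:85473740-85473889, + strand): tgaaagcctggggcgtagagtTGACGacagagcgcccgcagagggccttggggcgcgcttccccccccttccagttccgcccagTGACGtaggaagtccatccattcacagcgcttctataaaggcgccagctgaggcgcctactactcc
Fosb (chr7:19310046-19310195, - strand): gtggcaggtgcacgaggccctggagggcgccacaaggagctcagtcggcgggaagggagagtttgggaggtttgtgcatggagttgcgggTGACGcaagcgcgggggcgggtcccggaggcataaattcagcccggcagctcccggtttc

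TGACG began 129 and 66 bases before the start of Fos and 60 bases before that of Fosb. Over windows from 250 bases before to 50 after the start, 23.0% of all genes with a RefSeq promoter held these letters.

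The inducible heat shock gene Hspa1b, which encodes the chaperone HSP70, also rose. It stood at 74.3 and 76.3 CPM in T4 and 1.86 and 3.72 in naive cells, a rise of 27.0-fold (log2 4.76 ± 0.44, adjusted p = 0.047), and at 8.43 and 11.8 after N4. Its near-identical neighbour Hspa1a, with which reads can be split, was at 53.9 and 54.1 CPM against 0.706 and 2.27 (log2 5.18, adjusted p = 0.062). Of the 23 chaperone genes tested, Hspa1b alone passed; 13 lay higher in both T4 libraries and 2 lower (26.2% and 22.6% of all genes), with a median log2 fold change of 0.38. Hsp90aa1, the inducible HSP90, was at 195.2 and 175.9 CPM against 73.2 and 79.1 (adjusted p = 0.14), and Xbp1, a factor of the unfolded protein response, at 22.6 and 19 against 35.8 and 41.5 (adjusted p = 0.18). The promoter of Hspa1b is shown for its heat shock element, whose core pairs 2 inverted units as GAANNTTC, in capitals.

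Hspa1b (chr17:34959239-34959388, - strand): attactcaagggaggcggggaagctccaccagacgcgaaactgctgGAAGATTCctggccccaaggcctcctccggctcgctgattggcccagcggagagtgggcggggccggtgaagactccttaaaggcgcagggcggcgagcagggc

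The element began 104 bases before the start. Both Hspa1b and Hspa1a held GAANNTTC in the window of 250 bases before to 50 after the start, and 9.04% of all genes with a RefSeq promoter did.

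Among the other genes that rose, Zbtb32 encodes a BTB zinc finger repressor of lymphocyte cytokine genes. It stood at 27.7 and 32.4 CPM in T4 and 1.21 and 0.581 in naive cells, a rise of 33.5-fold (log2 5.07 ± 0.47, adjusted p = 0.047), and N4 cells held 54.7 and 37.9 CPM. Mmp10, a secreted matrix metalloproteinase, stood at 1.9 and 1.93 CPM in T4 and at 0 in both naive libraries. Against the mean naive floor of 0.00941 CPM, the level of 3 counts in a library, it was at least 203.9-fold higher (adjusted p = 0.047), and it reached 19 and 21.5 CPM after N4. Apobec2, a relative of the cytidine deaminases, was at 12.2 and 10.8 CPM against 1.7 and 1.71, and Tatdn2, with a TatD-type nuclease domain, at 8.14 and 9.09 against 0.415 and 0.645. 1500009L16Rik rose 8.89-fold from 4.05 and 5.3 to 38.0 and 45.0 CPM and was at 536.5 and 682.5 after N4.

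Genes of a small nuclear RNA and of a small nucleolar RNA rose as well. Rnu12, the U12 RNA of the minor spliceosome, was at 5.55 and 7.23 CPM in T4 and 0.499 and 0.545 in naive cells (12.2-fold, adjusted p = 0.049). Rnu3a, a U3 small nucleolar RNA that guides cleavage of ribosomal RNA precursors, was at 57.9 and 74.0 CPM against 4.26 and 6.96 (11.8-fold, adjusted p = 0.049). These RNAs are not polyadenylated, and U3 has several near-identical copies, so both levels are uncertain. The remaining calls were the noncoding 4833445I07Rik and Gm33460 and ENSMUSG00000119227.1, which has no GENCODE M21 model. Exons of 4833445I07Rik, Gm33460 and Rnu3a overlap another gene, and without strand their reads cannot be told from those of the overlapping gene. By gene type, 22 of the 27 called genes were protein coding, as were 10622 of the 13360 genes that entered the comparison. Of the 1038 long noncoding genes that entered 2 passed, both higher, and of the 1402 pseudogenes none did. Over all genes that entered, 0.202% passed, so these counts are too small to set gene types apart.

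**Figure D4:**
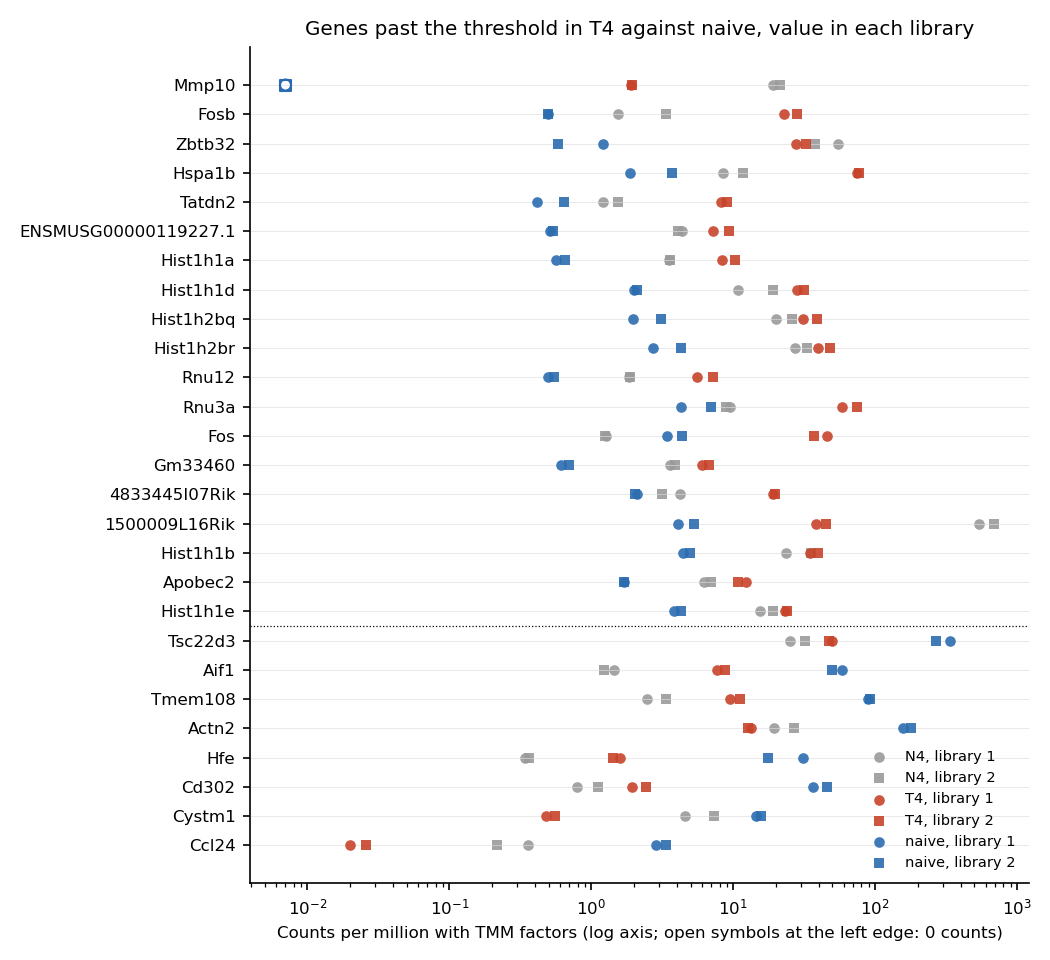
CPM with TMM factors (log axis) of each of the 27 called genes in the 6 libraries, ordered by fold change; circles are library 1 and squares library 2, and the dotted line separates the 8 lower from the 19 higher genes. In every gene the 2 T4 libraries (red) lie apart from the 2 naive libraries (blue), while N4 (grey) lies on either side, as in Fos at 1.26 and 1.25 CPM and 1500009L16Rik at 536.5 and 682.5.

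Among the 8 genes that fell was Tsc22d3, which encodes GILZ, a leucine zipper protein induced by glucocorticoids and FOXO factors in resting lymphocytes. It stood at 49.4 and 47.4 CPM in T4 and 333.8 and 266.2 in naive cells, a fall of 6.2-fold (log2 -2.63 ± 0.27, adjusted p = 0.049). Actn2, an alpha-actinin that crosslinks actin filaments, stood at 13.4 and 12.6 CPM against 156.4 and 178.3 and was 12.9-fold lower (log2 -3.69 ± 0.28, adjusted p = 0.047). Tmem108, a transmembrane protein, stood at 9.42 and 11.2 CPM against 88.5 and 91.8 and was 8.73-fold lower (adjusted p = 0.047), with exons that overlap another gene. In all 3 genes the naive libraries differed by less than 1.5-fold.

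The other 5 genes that fell are known mostly from myeloid cells or many tissues. Aif1, the calcium-binding IBA1 of macrophages, was at 7.62 and 8.71 CPM against 58.6 and 49.7 (6.64-fold lower), and Cd302, a C-type lectin receptor of myeloid cells, at 1.92 and 2.43 against 36.4 and 45.5 (18.8-fold lower). Hfe, an MHC class I relative that regulates iron uptake, was at 1.59 and 1.41 CPM against 30.8 and 17.5. Ccl24, the chemokine eotaxin-2, was at 0.0198 and 0.0258 CPM against 2.87 and 3.33, and Cystm1, a small membrane protein, at 0.478 and 0.558 against 14.4 and 15.7. All 5 passed at adjusted p = 0.047. The 14 macrophage and monocyte markers, of which none is among the 5, also had log2 fold changes below 0, with a median of -2.79. Their part in these falls was not tested.

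Genes of mitosis and DNA replication lay higher in T4, although none passed the test. All 28 genes of the G2 and mitosis list were tested and all had a positive log2 fold change; 27 had both T4 libraries above the naive ones and 22 an unadjusted p under 0.05, beside 26.2% and 7.18% of all genes. The median was 1.33. Ccnb2 and Ccnb1, the B cyclins that drive entry into mitosis, stood at 44.9 and 40.9 CPM against 10.7 and 6.88 (log2 2.28, adjusted p = 0.074), and at 30.3 and 26.9 against 10.6 and 8.83 (log2 1.55, adjusted p = 0.076). Mki67, the proliferation antigen Ki-67, stood at 14.1 and 11.9 CPM against 4.37 and 4.62 and at 32.4 and 35.0 after N4.

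In the S phase list all 28 genes tested were positive as well, 26 without overlap and 19 at an unadjusted p under 0.05, with a median of 1.03. Tk1, a thymidine kinase, was at 112.7 and 90.4 CPM against 32.9 and 34.8 (adjusted p = 0.076), and Rrm2, a subunit of ribonucleotide reductase, at 58.0 and 56.5 against 21.8 and 13.4 (adjusted p = 0.096). In the list of D cyclins, their kinases and CDK inhibitors, 7 of 18 genes lay higher, 3 lower and 8 overlapped (26.2% higher and 22.6% lower over all genes), with a median of 0.23 that was -0.20 without T4 library 2. Cdk6, a D-cyclin kinase of that list, was at 39.1 and 36.2 CPM against 15.8 and 12.7 (adjusted p = 0.09). The medians of the mitosis and S phase lists stayed positive in every alternative, from 1.20 to 1.71 for mitosis and 0.90 to 1.42 for S phase. Of the 23 mitosis genes with a RefSeq promoter, 17 (73.9%) held TTTGAA, the cell cycle homology region, on either strand, beside 20.2% of all genes with a promoter.

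The programme of naive and quiescent cells lay lower in part. Of 30 naive and stem-like genes, none passed; 14 were lower and 4 higher without overlap (22.6% and 26.2% of all genes), and the median was -0.73, which was -0.39 without naive library 1. Il7r, the interleukin 7 receptor that keeps naive cells alive, stood at 13.8 and 15.1 CPM in T4 and 55.7 and 65.8 in naive cells (log2 -2.07 ± 0.28, adjusted p = 0.066). Bcl2, the survival factor downstream of it, stood at 16.2 and 17.3 CPM against 46.4 and 59.6 (log2 -1.66, adjusted p = 0.094). These 2 naive pairs were tight, and the T4 values lay well below them. Tcf7, the factor TCF-1, was at 45.1 and 40.2 CPM against 89.6 and 43.5, close to naive library 2.

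In the quiescence list of 21 genes Tsc22d3 was the only call; 11 were lower and 1 higher without overlap (22.6% and 26.2% of all genes), with a median of -0.40, which was -0.80 without naive library 2 and -0.22 without naive library 1. Btg1, an antiproliferative factor that binds the RNA deadenylase, stood at 410.9 and 424.7 CPM against 1121.7 and 1416.5 (log2 -1.60, adjusted p = 0.085). Klf2, which holds T cells in quiescence, lay between the naive values, at 163.3 and 150.5 CPM against 315.2 and 87.9. Bbc3, the proapoptotic PUMA, was at 15.6 and 15.1 CPM against 56.3 and 51.6 (log2 -1.81, adjusted p = 0.062).

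Genes of the killer cell showed no common direction. The 18 granule genes tested of 23 listed had a median of 0.01, with 4 higher, 4 lower and 10 overlapping, and the sign of that median turned in 4 alternatives. Gzmb, the granzyme that activates caspases in the target cell, was at 39.4 and 38.4 CPM against 19 and 71.9 and at 423.0 and 486.8 after N4. Prf1, the pore former perforin, was at 9.52 and 9.1 CPM against 7.88 and 10.2. Gzmk, a granzyme with trypsin-like cleavage, was at 141.7 and 148.3 CPM against 3.05 and 21.8 (log2 3.55 ± 0.87, adjusted p = 0.16), and Ctsc, the protease that activates granzymes, at 47.5 and 41.1 against 122.6 and 119.8 (adjusted p = 0.076). The naive pair differed several-fold in Gzmb and Gzmk.

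Among 24 effector and exhaustion transcription factors Zbtb32 alone passed, 11 lay higher and 5 lower (26.2% and 22.6% of all genes), and the median was 0.18. Eomes, a T-box factor of memory cells, was at 20.9 and 20 CPM against 6.24 and 10.1, and Id2, an inhibitor of E proteins, at 194.9 and 217.7 against 355.8 and 684.8. Among 20 inhibitory receptors, 6 lay higher and 10 lower (26.2% and 22.6% of all genes) with a median of -0.23, which was 0.02 with library size scaling. The 6 included Lag3, a receptor for MHC class II, at 17.6 and 15.2 CPM against 2.32 and 1.3 (log2 3.18, adjusted p = 0.062), and Ctla4, which competes for CD28 ligands, at 15.8 and 16.3 against 0.446 and 2.63 (adjusted p = 0.16). Pdcd1, which encodes PD-1, was at 19 and 14.0 CPM against 1.97 and 6.15 (adjusted p = 0.25). The receptors named here are all among the 6 higher ones. Over the 20 genes, log2 fold changes ran from -2.2 to 3.39 and 11 were below 0.

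Surface receptors lay on both sides. Tnfrsf4 and Tnfrsf9 encode OX40 and 4-1BB, the targets of the antibodies given with the peptide. Tnfrsf4 was at 0.902 and 1.69 CPM in T4 and 1.34 and 1.01 in naive cells, and Tnfrsf9 at 15.5 and 15.5 against 47.0 and 21.6 (log2 -1.15, adjusted p = 0.26). Neither had both T4 libraries above the naive ones. Of 24 homing genes, 4 lay higher and 11 lower (26.2% and 22.6% of all genes) with a median of -0.71, which was -0.31 without naive library 1. Cxcr6, a chemokine receptor of tissue-resident cells, was at 16.2 and 17.5 CPM against 84.8 and 118.3 and at 210.9 and 310.1 after N4, Ccr9, a receptor for gut homing, at 0.698 and 0.976 against 25.4 and 9.03, and Itgb1, the beta-1 integrin, at 75.9 and 70.0 against 14.9 and 21.1. None passed (adjusted p = 0.062, 0.065 and 0.062). Killer lectin-like receptors had the lowest median of the pathway lists, -1.44, with 13 of 18 lower and 1 higher (22.6% and 26.2% of all genes), and it was -0.95 without naive library 2. Klrb1c, the NK1.1 antigen, was at 11.3 and 9.62 CPM against 33.6 and 53.2. Natural killer markers summed to 908.6 and 1010.9 CPM in T4 and 1987.1 and 5980.4 in naive cells, with 8 of 10 lower. Markers of gamma delta T and NKT cells summed to 120.2 and 121.8 CPM against 242.0 and 400.4, with 4 of 8 lower and a median of -2.74. The part of these markers in the receptor levels was not tested.

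**Figure D5:**
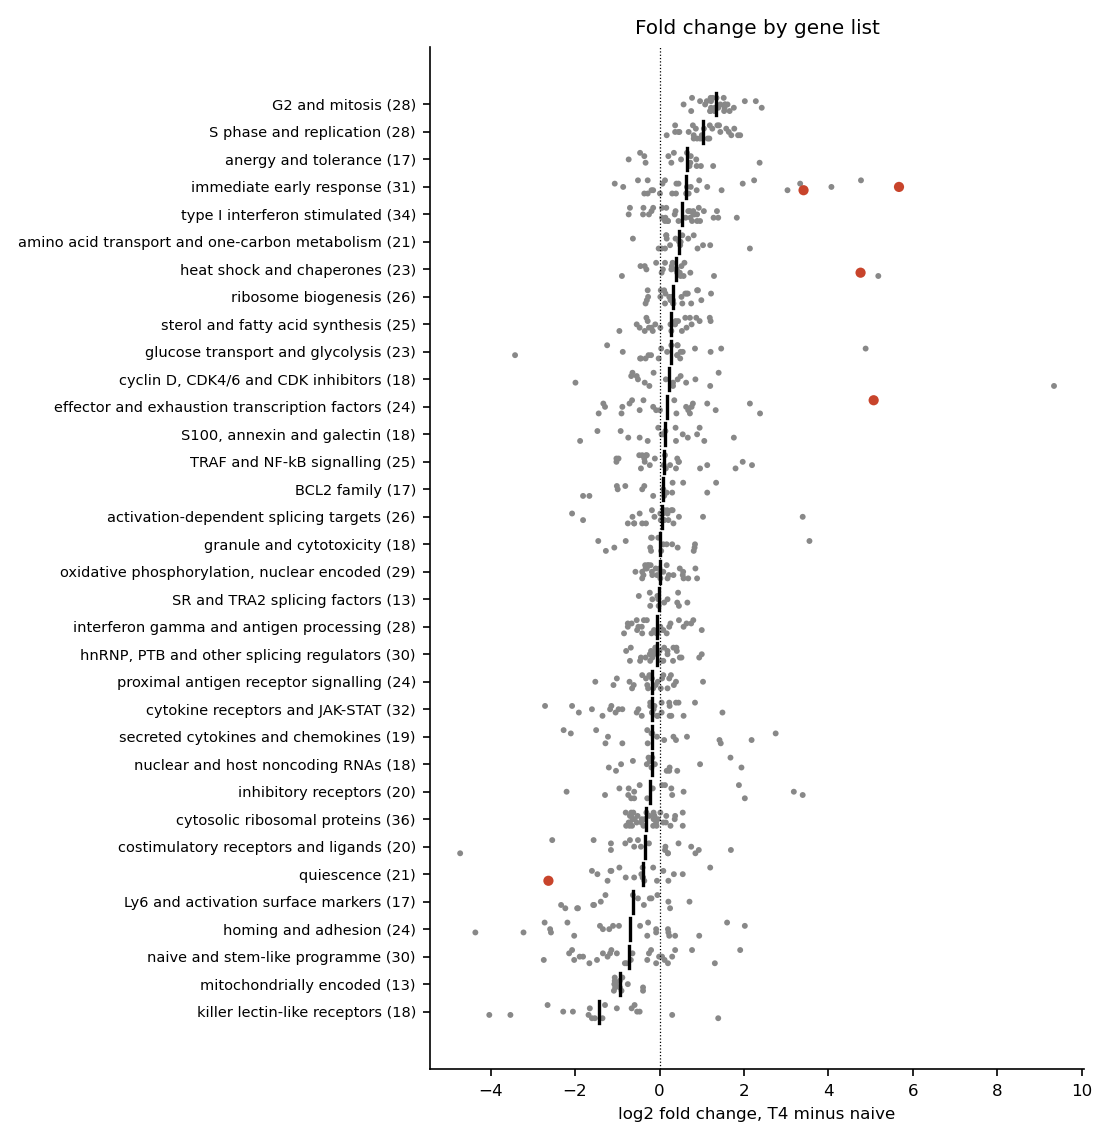
log2 fold change, T4 minus naive, of each tested gene in 34 gene lists, ordered by the median of the list (black bar); the number of genes tested is in brackets and red points passed the test. The mitosis and S phase lists lie wholly to the right with medians of 1.33 and 1.03, the killer lectin-like receptors have a median of -1.44, and most lists straddle 0; the point near 9 is Cdkn1c, at 0 in both naive libraries, whose fitted value depends on the prior count.

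In the TRAF and NF-kB list, which holds the path used by OX40 and 4-1BB, 8 of 25 genes lay higher and 5 lower, near the shares over all genes (26.2% and 22.6%), with a median of 0.10 that turned to -0.25 without naive library 2. Those with the largest differences were Tnfaip3, the deubiquitinase A20, at 12.1 and 13.2 CPM against 2.59 and 3.88 (log2 1.97, adjusted p = 0.11), Nfkbie, an inhibitor of NF-kB, at 14.4 and 13.8 against 4.1 and 2.06, and Traf1, an adaptor, at 44.3 and 41.1 against 17.8 and 6.84. Of the 20 genes of this list with a promoter, 17 held the NF-kB motif, GGG, 5 bases of any kind and CC, on either strand, as did 53.5% of all genes with a promoter.

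Genes stimulated by type I interferon lay higher in 16 of 34 and lower in 3 (26.2% and 22.6% of all genes), with 8 at an unadjusted p under 0.05 and higher (7.18% of all genes), and none passed. Their median was 0.53, and 0.29 without naive library 1. Oas1a, a sensor of double-stranded RNA, was at 21 and 19.6 CPM against 8.74 and 7.06 and at 6.3 and 4.4 after N4. Mx1, an antiviral GTPase, was at 5.47 and 4.71 CPM against 1.83 and 1.03, and Ifih1, the RNA helicase MDA5, at 4.78 and 4.5 against 1.88 and 1.67 (adjusted p = 0.13, 0.14 and 0.14 for the 3 genes). Of the 25 genes with a promoter in the table, 14 (56.0%) held GAAA, 2 bases of any kind and GAAA in a row, the interferon response motif, on either strand, beside 3.99% of all genes with a promoter. Genes of the interferon gamma and antigen processing list did not lie to one side, with 7 higher, 8 lower and a median of -0.06.

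All 13 mitochondrially encoded genes lay lower in both T4 libraries and 10 had an unadjusted p under 0.05 (22.6% and 7.29% of all genes), although none passed, with a median of -0.94 that ranged from -1.34 to -0.58, but the nuclear genes of oxidative phosphorylation had a median of 0.00. mt-Cytb, cytochrome b, was at 2137.7 and 2037.5 CPM against 3546.0 and 4991.4 and at 6176.2 and 9398.6 after N4. Ribosome biogenesis genes had a median of 0.31 with 13 of 26 higher and 2 lower, and amino acid transport and one-carbon genes 0.47 with 11 of 21 higher and none lower (26.2% and 22.6% of all genes). These medians were 0.14 and 0.18 without naive library 2 and 0.67 and 0.72 without naive library 1. Sterol and fatty acid synthesis genes had a median of 0.28 with 9 of 25 higher and 3 lower, which was 0.09 without T4 library 2. Of 23 genes of glucose transport and glycolysis, 7 lay higher, 4 lower and 12 overlapped, with a median of 0.28 that was -0.07 without naive library 2. Hk2, the inducible hexokinase of that list, was at 7.38 and 8.86 CPM against 2.58 and 3.33 (log2 1.46, adjusted p = 0.11), and Nop58, a core protein of box C/D RNA particles, at 41.7 and 38.0 against 23.4 and 19.6. Cytosolic ribosomal proteins had a median of -0.33, which was 0.04 with library size scaling.

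Splicing factors were near level. Tra2b, the splicing activator that the study is about, was at 95.2 and 92.0 CPM in T4, 87.5 and 76.5 in naive cells and 116.6 and 131.8 after N4 (log2 0.19 ± 0.22 for T4 minus naive, adjusted p = 0.79). The 13 SR and TRA2 genes had a median of -0.02 and the 30 hnRNP, PTB and related regulators -0.07, with no call in either list. Neat1, the RNA scaffold of paraspeckles, stood out among nuclear noncoding RNAs at 72.5 and 91.7 CPM against 19.5 and 23.3 (log2 1.94 ± 0.27, adjusted p = 0.066), and its exons overlap another gene.

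Levels after N4 place these calls beside the strong ligand. In the same fit, 7.96% of all genes passed between N4 and T4, 4.47% lower in N4 and 3.48% higher. Of the 19 genes higher in T4 than in naive cells, 8 were lower in N4 than in T4, namely Fos, Fosb, Hspa1b, Tatdn2, Rnu3a, Rnu12, Hist1h1a and 4833445I07Rik, and 2 were higher in N4, Mmp10 and 1500009L16Rik. For the other 9, including 3 of the 4 H1 genes and Zbtb32, N4 and T4 did not pass (adjusted p of 0.35 for Zbtb32 and 0.46 for Hist1h1b). Of the 8 genes lower in T4, Aif1, Hfe and Tmem108 were lower still in N4, and Ccl24 and Cystm1 were higher in N4 than in T4. Both comparisons use the same T4 libraries, so they are not independent.

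The share of each transcript within its gene was tested for 42446 transcripts of 10394 genes. By this test 27 genes passed (0.26% of those tested and 0.294% of the tested genes that entered the comparison, edgeR diffSpliceDGE with Simes p-values per gene and Benjamini-Hochberg adjustment), and none of these 27 was called at the gene level; 881 genes (8.48%) had an unadjusted p under 0.05. On simulated data this test called unchanged genes more often than its threshold allows, so the count is given as a description. The simulated counts had the same set spread for every transcript and were modelled on transcripts well counted in all libraries. These data differ in both, so their own error rate is not known. In 22 of the 27 genes the transcript of smallest p was listed at 0 in both libraries of a group, 8 in T4 and 14 in naive cells, and in such estimates a 0 can be a failed assignment of reads. With limma's diffSplice, added after seeing the data, 141 genes passed, among them 17 of the 27. Klrd1, which encodes CD94, the partner of NKG2 receptors, had the clearest pattern. Its transcript Klrd1-202 made up 91.2% and 91.8% of the gene's counts in T4 and 59.2% and 58.0% in naive cells. Klrd1-203, the transcript that carried the test, made up 0.2% and 0.3% against 20.7% and 20% (adjusted p = 0.00012 for the gene, and 2.5e-05 by limma). The exact binomial 95% intervals of Klrd1-202 lay within 90.9% to 92.0% in T4 and 57.7% to 59.5% in naive cells; they cover counting error only and would be wider if each estimated count stood for less than 1 read. The N4 libraries, at 90.9% and 90.9%, were like T4.

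Pigq, Metap2 and Necap2 had a transcript listed at 0 in both naive libraries. Pigq-211, a retained-intron transcript of a gene for GPI anchor synthesis, made up 47.4% and 69.8% in T4 and was listed at 0 in naive and N4 libraries (adjusted p = 0.0077). Metap2-208, of a methionine aminopeptidase gene, made up 12% and 21.7% against a listed 0 (adjusted p = 0.00029). Necap2-201, of a gene of clathrin-coated vesicles, made up 28.8% and 44.7% against 97.4% and 96.8%, with Necap2-205, a processed transcript, at 64.6% and 52.5% against a listed 0 (adjusted p = 0.014 for the gene). Luc7l3-202, of a splicing factor gene, made up 24% and 15.1% against 54.5% and 49.2% (adjusted p = 0.029 for the gene), and Hmgb1-201, of a chromatin protein gene, 92.0% and 93.6% against 77.6% and 83.3% (adjusted p = 0.037 for the gene). The p of a gene is set by its transcript of smallest p, and for Necap2-201, Klrd1-202, Luc7l3-202 and Hmgb1-201 the transcript's own p was 0.19, 0.37, 0.23 and 0.81. The count was 2 genes without T4 library 1 and 6 without T4 library 2.

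Genes known to be spliced differently upon T cell activation gave no call. Of the 25 tested, none passed, beside 0.26% of all genes tested for usage, and 4 had an unadjusted p under 0.05, beside 8.48%. With so low a share of calls over all genes, the lack of a call among 25 says little about this list. In Tra2b, the transcript annotated for nonsense-mediated decay, Tra2b-206, made up 40.4% and 44.0% of counts in T4, 36.4% and 34.0% in naive cells and 30.7% and 26.3% after N4, and the main coding transcript Tra2b-204 made up 55.3% and 50%, 59.3% and 58.9%, and 64.9% and 68.2% (adjusted p = 1.0 for the gene). The T4 libraries thus lay above the naive ones for Tra2b-206 without passing the test.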

How the data were processed

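The authors deposited whole-number estimated counts per gene and per transcript for 6 libraries. Per the labels' protocols, RNA came from a QIAGEN miRNeasy Micro kit and poly(A) libraries from a SMARTer ultra-low V4 kit, which does not mark strand. DESeq2 1.30.1, R 4.0.5, StringTie 2.1.0, SAMtools 1.9, STAR 2.7.1a and build mm39 are listed, without roles, in the submitters' processing notes. Annotation release and strand setting: not given in the sources used here. Gene names, types and exon overlaps come from GENCODE M21 (94.1% of gene IDs and 97.1% of transcript IDs matched) and promoters from RefSeq, both on GRCm38, so no deposited value was placed by coordinate.

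Genes kept by filterByExpr (23003) were fitted over all 6 libraries with group means and TMM factors in edgeR 4.0.16 with limma 3.58.1 (R 4.3.3; glmQLFit, glmQLFTest, 3 residual degrees of freedom), T4 minus naive, with an adjusted p under 0.05. The common biological coefficient of variation was 0.67. Transcript usage was tested with diffSpliceDGE. Both were tested on simulated data, where the gene test recovered mainly large changes and diffSpliceDGE exceeded its nominal error rate; limma's diffSplice was therefore added. An exact permutation test of 2 against 2 libraries cannot go below p = 0.33. Named genes were, by rule, the called genes of largest fold and of highest level (15 and 5 in each direction, mean log2 CPM of at least 3), the 4 of smallest p in each list, Tra2b, Tnfrsf4 and Tnfrsf9, and the 10 usage calls of largest share difference. Outside it, and chosen after their values were seen, were the 13 called genes it leaves out, Cd69, Cd8a, Egr1, Gzmb, Jun, Klf2, Myc, Nr4a1, Pdcd1, Prf1 and Tcf7, the histone class and the motifs of the H1, Fos, Fosb and Hspa1b promoters. The members and lists were chosen with earlier results of these data known. Of 944 entries in 34 gene lists and 14 marker lists, 3 matched no gene. Alternatives were other scalings, filters, tests, a replicate block and leaving out each library; DESeq2 1.42.0 was run as one.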

Additional observations from a re-analysis of the deposited data

How the results depend on the processing

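The counts of calls moved widely, while the 27 called genes kept their direction and an unadjusted p under 0.05 in every alternative. From 19 higher and 8 lower, library size scaling gave 42 and 11, with 16 of the 27 still called and a median over all genes of 0.30, and the DESeq2 Wald test 850 and 1145. No filter on low counts gave 378 and 578. RLE scaling, a minimum fold change of 1.5 and a fit of only the T4 and naive libraries each gave 0 and 0 by edgeR, with 3360, 2464 and 3531 genes at an unadjusted p under 0.05. Leaving out 1 library gave 0 to 195 higher and 0 to 257 lower. The cause of these moves was not tested.

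Whether replicate numbers pair the samples cannot be told from 2 libraries a group. Over genes, the deviations of library 1 from its group mean correlated at 0.04 between T4 and naive cells. Those of library 2 are the same values with the sign turned, so they add nothing. A replicate block gave 62 higher and 68 lower genes and 12 genes with changed usage, from 27. Leaving out 1 library gave 2 to 40 genes with changed usage, and limma's diffSplice 141.

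Signs turned for 6 named genes that did not pass. With library size scaling Gzmb was at 0.28, and with RLE scaling and DESeq2 Prf1 was at -0.02. Over the fits without 1 library, Klf2 ran from -1.01 to 0.74, Tnfrsf4 from -0.45 to 0.48, Myc from -0.22 to 1.39, Gzmb from -0.98 to 1.03, Prf1 from -0.22 to 0.24 and Nr4a1 from -0.64 to 0.1.

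The number of libraries and the spread of the naive pair limit precision, and how the estimates relate to reads is not known.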
